A study of Mus musculus with 16 samples.

Results

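Keratins are the proteins of the intermediate filaments of epithelial cells, and each filament is built from pairs of a type I and a type II chain. In the epidermis, Krt5 and Krt14 form the pair of the dividing basal layer, and cells that leave that layer to differentiate switch to Krt1 and Krt10. Wounds and inflammation induce Krt6a, Krt6b, Krt16 and Krt17, the stress keratins, some of which hair follicles make at all times. The 10 keratins described here were named by role: 2 basal (Krt5, Krt14), 4 suprabasal (Krt1, Krt10, Krt2, Krt77) and 4 stress keratins. Of these 10, 8 matched 1 target each among the 23930 targets counted in every library. Krt6a and Krt6b matched none and were not analysed here. Krt2 had too few counts to be tested, which left 7 keratins in the statistical tests.

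RNA was taken from whole skin of mice 12 weeks old, 4 mice in each of 4 genotypes, and the 16 libraries came from animals that the labels name one by one. All groups carried the Zc3h12a(loxP/loxP) alleles, including Control, which had no Cre. Zc3h12a encodes MCPIP1, an endoribonuclease that degrades mRNAs of inflammatory mediators. EKO mice (keratinocyte knockout) also carried Krt14Cre(Tg/Wt), MKO mice (myeloid knockout) carried LysMCre(Tg/Wt), and EMdKO mice carried both. Krt14-Cre is driven by the promoter of one of the keratins described here and is active in basal keratinocytes and in the follicles and glands that share their origin. LysM-Cre is active in macrophages and neutrophils. No group had Cre without the floxed gene, so the effect of a Cre gene and that of the loss of Zc3h12a cannot be told apart.

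Each library was made by amplifying 1 short stretch of each transcript and held between 6962474 and 12086327 counts, of which the keratins took between 0.799% (EKO mouse 1) and 2.72% (EKO mouse 3). Levels are given as CPM, the counts of a target scaled to a common library total, and because amplicons differ in efficiency they are compared between mice for 1 keratin, never between keratins. Zc3h12a lay between 19.4 and 30.3 CPM in Control, 17.1 and 35.0 in MKO, 7.07 and 11.7 in EKO, and 4.41 and 5.71 in EMdKO. The keratin levels of EKO mouse 1 stand apart from the other EKO mice below. That mouse also had the most skeletal muscle RNA of its group (58538 CPM summed, against 26630 to 41557). Its hair shaft and inner root sheath genes were highest as well (8902 CPM summed, against 229.2 to 2350). The part of tissue makeup in its keratin levels was not tested. Skeletal muscle genes were plentiful in every library, with summed levels of 21812 to 106441 CPM over 11 genes, so RNA of muscle is part of every sample. In whole tissue, fewer cells of a type and less RNA per cell cannot be told apart.

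The genes lie in the 2 keratin clusters of the mouse genome. In the GRCm38.p6 annotation the type II genes Krt5 (101707069 to 101712905), Krt1 (101845426 to 101850786), Krt2 (101810689 to 101818956) and Krt77 (101858731 to 101869706) are on chromosome 15. The type I genes Krt10 (99385254 to 99397449), Krt14 (100203162 to 100207510), Krt16 (100246091 to 100248902) and Krt17 (100256215 to 100261029) are on chromosome 11. The build used for the deposited counts was not given in the sources used here, so these positions describe the genes and not the amplicons. Some of these genes are close in sequence. Coding sequences of Krt6a and Krt6b were 97.6% identical in an alignment of GENCODE vM21 transcripts, those of Krt14 and Krt16 82.7%, of Krt14 and Krt17 74.8% and of Krt16 and Krt17 69.9%. Not all neighbours are so alike, since the suprabasal Krt1 and Krt77 reached 61.7%. Krt14 and Krt16 share an unbroken identical run of 134 coding bases. Krt5 and Krt6a, which matched no target, were 75.5% identical and share a run of 140. The stretch of 90 bases below was chosen because it is the one most alike in the 3 genes. The rest of their coding sequences is less alike, and differing bases are in capitals.
Krt14: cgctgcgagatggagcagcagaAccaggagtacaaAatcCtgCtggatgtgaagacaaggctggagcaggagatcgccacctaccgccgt
Krt16: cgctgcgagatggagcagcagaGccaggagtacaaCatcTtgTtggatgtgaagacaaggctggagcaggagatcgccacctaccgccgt
Krt17: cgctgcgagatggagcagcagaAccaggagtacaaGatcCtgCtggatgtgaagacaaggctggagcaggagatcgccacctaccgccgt
Of these 90 bases, 86 are the same in all 3 genes and 4 differ in at least 1. The positions of the amplicons were not given, so whether reads of one of these keratins were counted for another was not tested. The Krt5, Krt14, Krt16 and Krt17 values carry that limit.

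The promoters of 5 of the 10 keratins are in the RefSeq table used (GRCm38.p6), and 3 of them are shown because Krt10 and Krt77 moved most closely together of all keratin pairs, with the basal Krt5 for contrast. Each line gives the 150 bases before the annotated start, from the minus strand: Krt5 at chr15:101712906-101713055, Krt10 at chr11:99389365-99389514 and Krt77 at chr15:101869706-101869855. The Krt10 window lies inside the span given above for that gene, which ends at 99397449. Capitals mark matches to the motif TATANA, to its variant ATAAAA and to the C/EBP motif TTNNGCAA.
Krt5: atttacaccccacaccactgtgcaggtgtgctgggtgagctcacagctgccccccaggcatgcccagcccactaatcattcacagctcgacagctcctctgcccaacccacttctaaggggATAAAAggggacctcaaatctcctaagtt
Krt10: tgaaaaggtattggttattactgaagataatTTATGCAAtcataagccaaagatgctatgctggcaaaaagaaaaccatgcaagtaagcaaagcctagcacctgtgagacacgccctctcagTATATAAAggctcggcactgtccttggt
Krt77: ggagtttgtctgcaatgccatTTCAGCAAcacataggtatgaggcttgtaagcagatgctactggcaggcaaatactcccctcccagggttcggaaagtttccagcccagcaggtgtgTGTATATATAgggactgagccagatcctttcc
TATANA, a form of the TATA box, matched in Krt10 and Krt77 within 32 bases of the start, and its matches on the 2 strands overlap. It was found on either strand in 22.6% of 32851 promoters over the 250 bases before the start. Krt5 had no TATANA match and instead the variant ATAAAA (17% of promoters) between 29 and 24 bases before its start. TTNNGCAA, a form of the site bound by C/EBP factors, matched in Krt10 (119 to 112 bases before the start) and in Krt77 (129 to 122 bases), and in 9.56% of all promoters. The promoter of the suprabasal Krt2, not shown, had a TATANA match (29 to 24 bases before the start) and no TTNNGCAA match. TGANTCA (AP-1, 6.75% of promoters), GGGCGG (Sp1, 32.7%) and GCCNNNGGC (AP-2, 13.7%) had no match in the 150 bases shown. These matches describe letters in a window and do not show binding.

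Krt1 was the keratin with the clearest difference between genotypes. It pairs with Krt10 in the first differentiated layers, and Control mice 1 to 4 had 382.5, 571.3, 959.5 and 1278 CPM. EKO mice 1 to 4 had 457.8, 3890, 5036 and 4572 CPM, MKO mice 680.0, 991.7, 859.8 and 703.1 CPM, and EMdKO mice 1576, 1349, 2458 and 1711 CPM. EKO mice 2 to 4 thus lay above every other mouse of the study, EKO mouse 1 lay among the controls, and all EMdKO mice lay above all Control and MKO mice. By group mean the order was EKO (3489 ± 2075 CPM, SD, n = 4), EMdKO (1773 ± 479.9), MKO (808.6 ± 145.8) and Control (797.9 ± 400.3). Within that order EMdKO and MKO did not overlap, and the other neighbours did.

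**Figure D1:**
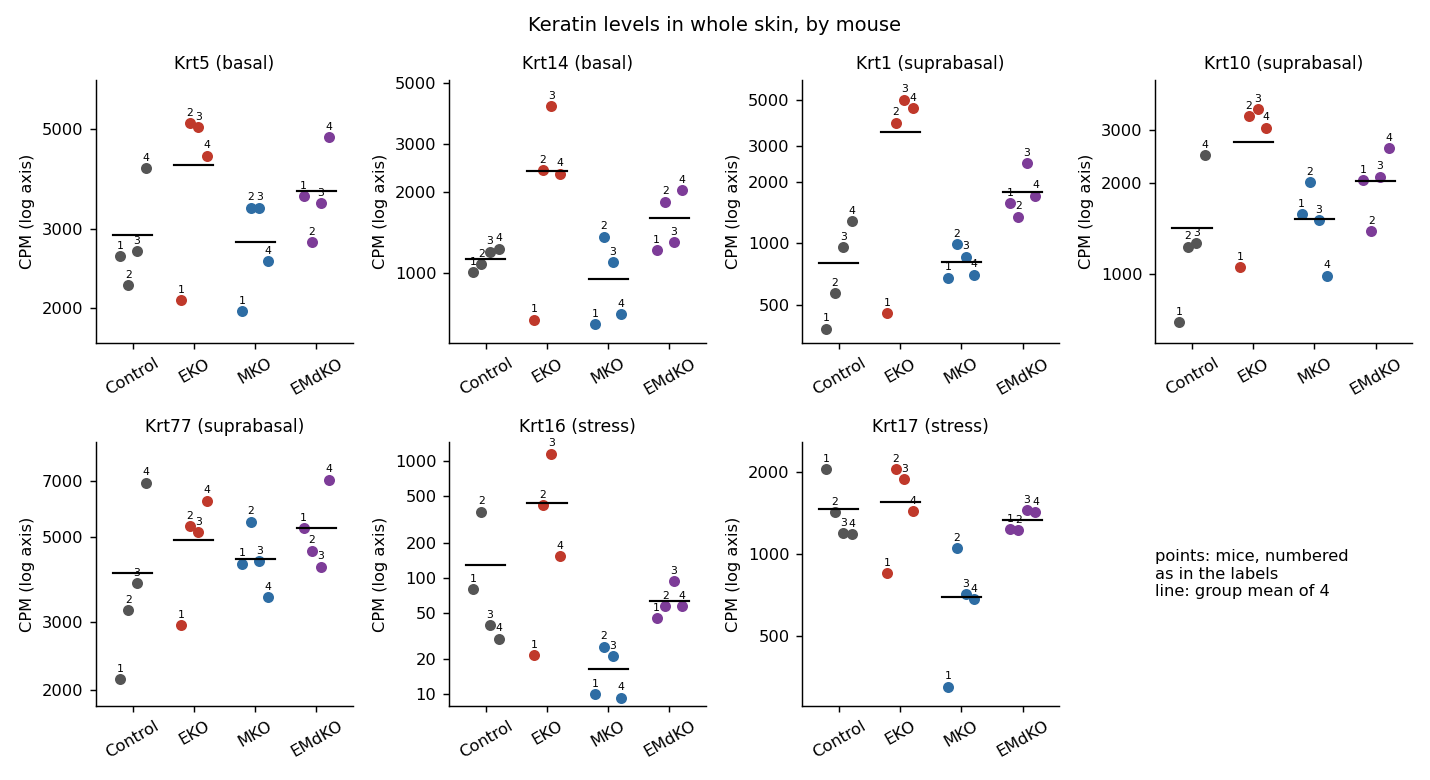
Levels of the 7 tested keratins in each of the 16 mice, in CPM on log axes that differ between panels; numbered points are mice, and lines are group means of 4. Krt1 runs from 382.5 CPM in Control mouse 1 to 5036 in EKO mouse 3, with EKO mouse 1 at 457.8, and Krt16 is at most 25.5 CPM in the MKO mice.

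The mean effect of Krt14-Cre sets EKO and EMdKO together against Control and MKO. Of the 7 tested keratins, 1 rose in it and none fell: Krt1, by 1.63 ± 0.37 on the log2 scale (95% interval 0.85 to 2.41; edgeR quasi-likelihood, Benjamini-Hochberg adjusted p = 0.0457 over 13633 genes), or 3.1-fold. Of all genes tested, 0.924% passed in that comparison, with 0.778% higher and 0.147% lower. Krt1 was close to the threshold: it also passed in each of the 8 fits with another tool, scaling, filter, covariate or block, or with a pair of libraries left out (adjusted p from 0.000244 to 0.0451), but in only 2 of the 16 fits that left out 1 library. Leaving out EKO mouse 1 gave the lowest adjusted p of those 16, 0.000328, and leaving out EKO mouse 3 the highest, 0.116, while the log2 fold change stayed between 1.52 and 1.81.

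**Figure D2:**
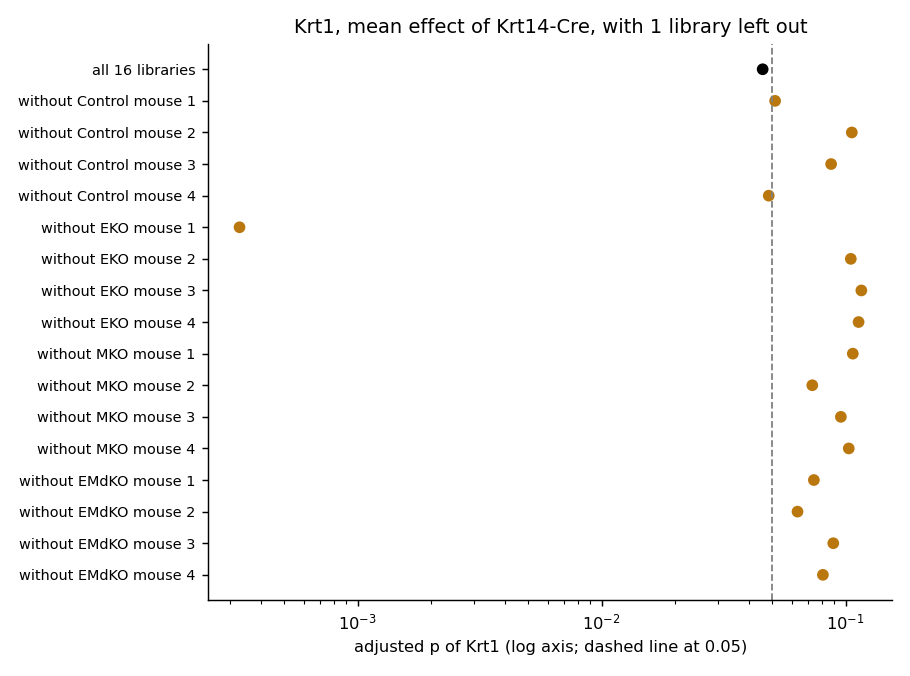
Adjusted p of Krt1 in the mean effect of Krt14-Cre (x axis, log scale) for all 16 libraries (black, 0.0457) and with each library left out in turn (orange); the dashed line marks 0.05. Without EKO mouse 1 the value is 0.000328, without Control mouse 4 it is also under the line, and the other 14 points lie to its right.

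Taken genotype by genotype, Krt1 did not pass the test over all genes. All 7 keratins overlapped between EKO and Control, where 1.03% of all genes were higher and 1.23% lower without overlap. For Krt1 the log2 fold change there was 2.13 ± 0.53 (edgeR quasi-likelihood adjusted p = 0.345). In that comparison edgeR called none of the 13633 genes (0%), and 940 had an unadjusted p under 0.05. DESeq2 called 51 genes there, and Krt1 was the only keratin among them (DESeq2 adjusted p = 0.00453). Without EKO mouse 1 the change was 2.50 and passed in edgeR (adjusted p = 0.0016). In EMdKO against Control it was 1.15 ± 0.51 (edgeR adjusted p = 0.589). Every EMdKO mouse lay above every Control mouse, which gave an exact two-sided permutation p of 0.0286, the smallest that 4 against 4 mice allow. Krt1 was the only 1 of 7 keratins that was higher without overlap there, against 2.23% of all genes, and 0.0293% of genes passed the test. MKO did not differ from Control by more than the spread (0.02 ± 0.51, interval -1.06 to 1.09).

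Krt10, the type I partner of Krt1, varied in the same mice but over a narrower range. Control mice 1 to 4 had 694.1, 1231, 1262 and 2481 CPM, and EKO mice 1055, 3336, 3518 and 3051 CPM. MKO mice had 1576, 2009, 1504 and 987.7 CPM, and EMdKO mice 2051, 1384, 2102 and 2611 CPM. EKO mouse 1 was again low, Control mouse 4 overlapped the knockouts, and every pair of groups overlapped. Krt14-Cre had a mean effect on Krt10 of 0.69 ± 0.28 (edgeR adjusted p = 0.357), and the EKO difference from Control was 0.95 ± 0.39 (interval 0.11 to 1.79; edgeR adjusted p = 0.68).

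Krt77, a type II keratin first known from sweat gland ducts that mouse epidermis also makes, showed the smallest mean effect of Krt14-Cre of the 3 tested suprabasal keratins. Its values were 2134, 3231, 3798 and 6950 CPM in Control mice and 2945, 5356, 5152 and 6238 CPM in EKO mice. They were 4268, 5500, 4327 and 3491 CPM in MKO and 5285, 4618, 4195 and 7082 CPM in EMdKO mice. The groups overlapped widely, and Control alone spanned a 3.26-fold range. For Krt77 the mean effect of Krt14-Cre was 0.28 ± 0.24 (interval -0.22 to 0.78; edgeR adjusted p = 0.738), so a rise like that of Krt1 lay outside its interval.

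Krt2, a type II keratin of the uppermost living layers that is made mainly in ear, sole and tail skin of mice, was nearly undetected. It had between 0 and 13 counts in a library, 50 in all, and none in 6 of the 16 libraries. A count of 0 allows up to 3 counts at the 95% level (counting error only), so differences between genotypes were not detectable at this depth.

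Because Krt1 had a larger mean effect of Krt14-Cre than Krt10, Krt5 and Krt77, its ratio to each was taken in every mouse as a log2 difference from the Control mean, in which the amplicon of each gene cancels. These ratios use the same levels as above and are given as descriptions. For Krt1 to Krt10 the Control mice lay at -0.03, -0.28, 0.43 and -0.13 and the EKO mice at -0.37, 1.05, 1.35 and 1.41. The MKO mice had -0.38, -0.19, 0.02 and 0.34, and the EMdKO mice 0.45, 0.79, 1.06 and 0.22. Thus 3 of 4 EKO mice and 3 of 4 EMdKO mice exceeded the highest control, with group means of 0.86 ± 0.84 (EKO), -0.05 ± 0.31 (MKO) and 0.63 ± 0.37 (EMdKO; SD, n = 4). The ratio of Krt1 to Krt5, differentiated to basal, averaged 1.34 ± 1.06 in EKO, 0.20 ± 0.18 in MKO and 0.93 ± 0.42 in EMdKO. The ratio of Krt1 to Krt77, added after the values were seen, averaged 1.44 ± 1.2 in EKO, -0.09 ± 0.16 in MKO and 0.77 ± 0.56 in EMdKO. In all 3 ratios EKO mouse 1 was the lowest EKO mouse and had a value below 0.

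**Figure D3:**
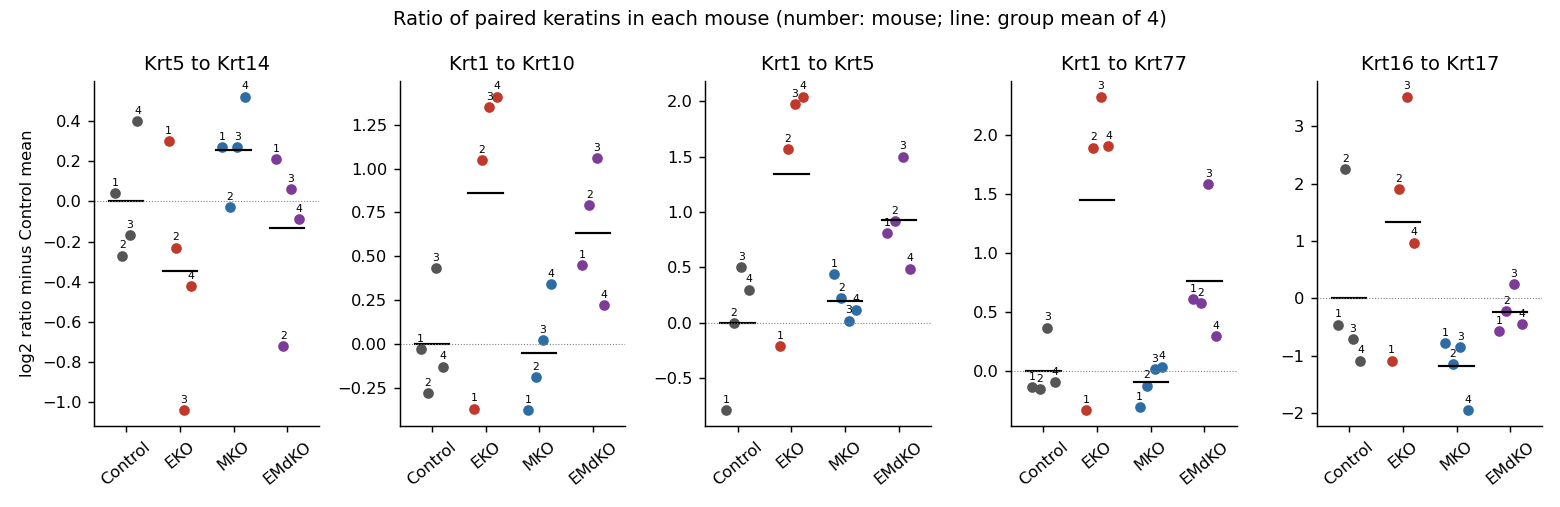
Log2 ratio of 5 keratin pairs in each mouse minus the Control mean (y axis, a separate scale in each panel); numbered points are mice, and lines are group means of 4. For Krt1 to Krt10, EKO mice 2 to 4 lie between 1.05 and 1.41 and EKO mouse 1 at -0.37.

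Both basal keratins had smaller mean effects of Krt14-Cre than Krt1. Krt14, the type I basal keratin, had 1011, 1078, 1201 and 1234 CPM in the controls, a range of 1.22-fold, while EKO mice 1 to 4 had 675.7, 2396, 4127 and 2328 CPM. MKO mice had 651.0, 1364, 1101 and 705.4 CPM, and EMdKO mice 1218, 1836, 1305 and 2026 CPM. The EKO mice were thus spread over 6.11-fold, with 3 above all other mice of the study and mouse 1 below all controls. The mean effect of Krt14-Cre was 0.91 ± 0.28 (interval 0.32 to 1.49; edgeR adjusted p = 0.182). It passed with DESeq2 (adjusted p = 0.0313), with limma-voom and sample weights (adjusted p = 0.0494) and in edgeR without EKO mouse 1 (1.06, adjusted p = 0.00722). EMdKO against Control had a log2 fold change of 0.50 ± 0.39, and its exact permutation p was 0.0571 because EMdKO mouse 1, at 1218 CPM, lay below Control mouse 4.

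Krt5, the type II partner of Krt14, had 2610, 2251, 2682 and 4099 CPM in Control and 2087, 5151, 5057 and 4370 CPM in EKO. MKO mice had 1970, 3347, 3348 and 2544 CPM, and EMdKO mice 3547, 2811, 3429 and 4799 CPM. EKO mice 2 to 4 lay above all controls and EKO mouse 1 below them, and the groups overlapped in every comparison. Its mean effect of Krt14-Cre was 0.45 ± 0.21 (edgeR adjusted p = 0.458). The ratio of Krt5 to Krt14 averaged -0.35 ± 0.55 in EKO, 0.26 ± 0.23 in MKO and -0.13 ± 0.41 in EMdKO (SD, n = 4), and each of these groups overlapped Control.

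Krt16, a type I stress keratin that pairs with the Krt6 proteins, had the widest fold range of the 7 tested keratins over the 16 mice, from 9.29 to 1165 CPM. Control mice 1 to 4 had 80.1, 369.5, 39.1 and 29.9 CPM, and EKO mice 21.6, 418.7, 1165 and 152.9 CPM. MKO mice had 10, 25.5, 21.2 and 9.29 CPM, and EMdKO mice 44.9, 56.9, 92.9 and 56.5 CPM. The controls spanned 12.4-fold and the EKO mice 54.0-fold, every MKO mouse was below every Control and EMdKO mouse, and EMdKO was narrow and lay within the range of the controls. The 3 mice with the most Krt16, EKO mice 3 and 2 and Control mouse 2, were also the 3 highest in the neutrophil list, whose mean log2 CPM over its 4 tested genes of 8 was 3.32, 2.59 and 3.55 in them and at most 1.63 in the other mice. That list includes S100a8, which stressed keratinocytes also make, and the part of neutrophils in the Krt16 spread was not tested. Of the 8 genes of that list, Ly6g was counted only in EKO mice and Mpo only in Control mice. No other gene of the list was at 0 in all mice of a group. Counts of 0 do not show that neutrophils were absent. By group mean the order was EKO (439.5 ± 511.1 CPM), Control (129.6 ± 161.4), EMdKO (62.8 ± 20.8) and MKO (16.5 ± 8.12), and EMdKO and MKO were the only neighbours without overlap. In EKO against Control the log2 fold change was 1.76 ± 0.89 (edgeR adjusted p = 0.736), and it ranged from 0.61 without EKO mouse 3 to 3.15 without Control mouse 2.

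Krt17, a type I stress keratin that the outer root sheath of the hair follicle also makes, had 2043, 1422, 1192 and 1181 CPM in Control and 854.6, 2053, 1882 and 1442 CPM in EKO. MKO mice had 327.3, 1053, 715.9 and 684.6 CPM, and EMdKO mice 1238, 1226, 1451 and 1426 CPM. All MKO mice were lower than all Control and all EMdKO mice, while Control, EKO and EMdKO overlapped. The means were 1558 ± 534.8 CPM in EKO, 1459 ± 404.7 in Control, 1335 ± 120.0 in EMdKO and 695.2 ± 296.5 in MKO. Relative to the controls, the log2 ratio of Krt16 to Krt17, added after the values were seen, averaged 1.33 ± 1.92 in EKO mice, -1.19 ± 0.54 in MKO mice and -0.25 ± 0.36 in EMdKO mice. All 3 groups overlapped Control.

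Against Control, the MKO mice had log2 fold changes of -2.97 ± 0.94 for Krt16 (interval -4.97 to -0.97) and -1.07 ± 0.32 for Krt17 (interval -1.75 to -0.39), and neither passed the test over all genes (edgeR quasi-likelihood adjusted p = 0.331 for each; 0.0293% of genes called). For both, the highest MKO mouse lay below the lowest control, with an exact permutation p of 0.0286 each. These were 2 of 7 keratins, against 1.71% of all genes. The Krt16 value rested in part on Control mouse 2, since it was -1.58 without that mouse. Hair follicle genes were also lower by group: all 23 tested genes of the hair shaft and inner root sheath had negative changes (median -6.58). Their mean log2 CPM was 9.42, 6.70, 4.83 and -0.69 in Control mice 1 to 4 and -0.84, -0.63, -0.64 and 3.14 in MKO mice 1 to 4. Control mouse 1 was the highest control in this hair score and in Krt17 (2043 CPM). MKO mouse 4 had the highest MKO score and the lowest Krt16 (9.29 CPM). Control mouse 4, at a score of -0.69, had 1181 CPM of Krt17, above every MKO mouse. With that score as a covariate the changes were -1.94 for Krt16 and -0.90 for Krt17 (edgeR adjusted p = 0.99 each). The score differed between these groups, so that fit cannot separate genotype from hair follicle content. Negative changes were also found in all 17 tested cell cycle genes (median -0.64), all 7 melanocyte genes (-2.81), all 12 sebaceous gland genes (-0.48) and 3 of 4 neutrophil genes (-1.74), and positive changes in all 11 muscle genes (0.57). No gene of these lists passed the test, and the part of these tissues and cells in the keratin differences was not tested.

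EMdKO mice, which add Krt14-Cre to LysM-Cre, had higher levels than MKO mice for Krt1, Krt16 and Krt17 without overlap (3 of 7 keratins, against 3.71% of all genes; exact permutation p = 0.0286 each). The log2 fold changes were 1.13 ± 0.51, 1.92 ± 0.91 and 0.94 ± 0.32, and none passed over all genes (edgeR adjusted p = 0.646, 0.678 and 0.392), where 0.00734% of genes did. Estimates were positive there for all 23 hair genes (median 3.63), all 17 cell cycle genes (0.35), all 7 melanocyte genes (0.42), 11 of 12 sebaceous genes (1.13) and 3 of 4 neutrophil genes (1.15), and negative for 9 of 11 muscle genes (-0.53). None of them passed, and their part was not tested. Between EMdKO and EKO all 7 keratins overlapped, where 2.86% of all genes were higher and 2.71% lower without overlap. The widest difference there was Krt16 at -2.81 ± 0.92 (edgeR adjusted p = 0.672; 0.0147% of genes called), and Krt1 had -0.98 ± 0.51 (adjusted p = 0.765).

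The mean effect of LysM-Cre sets MKO and EMdKO against Control and EKO. No keratin passed in it, as against 0.044% of all genes in edgeR. An unadjusted p under 0.05 was found for 1790 of all 13633 genes and for 2 of the 7 keratins. These were Krt16 (-2.89 ± 0.66, interval -4.29 to -1.49; adjusted p = 0.123) and Krt17 (-0.65 ± 0.23; adjusted p = 0.246). Beside them, estimates were negative for all 23 hair genes (median -3.72), all 17 cell cycle genes (-0.65), 6 of 7 melanocyte genes (-2.01), 10 of 12 sebaceous genes (-0.28) and 3 of 4 neutrophil genes (-1.12), and positive for all 11 muscle genes (0.27). The part of these lists, in which no gene passed, was not tested. Krt16 passed with DESeq2 (adjusted p = 0.00256) and in edgeR without EKO mouse 1 (adjusted p = 0.0349), and had -2.17 (edgeR adjusted p = 0.493) with the hair score as a covariate. The mean effect of Krt14-Cre was 1.84 ± 0.64 for Krt16 (edgeR adjusted p = 0.258) and 0.52 ± 0.23 for Krt17 (adjusted p = 0.404). With limma-voom Krt16 passed there (2.14, adjusted p = 0.0338). The test of the interaction asks whether the 2 Cre genes together did something other than the sum of their changes. No keratin passed it (0% of genes called by edgeR; 465 genes and no keratin had an unadjusted p under 0.05), and Krt1 had -1.0 ± 0.72 (interval -2.52 to 0.53).

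**Figure D4:**
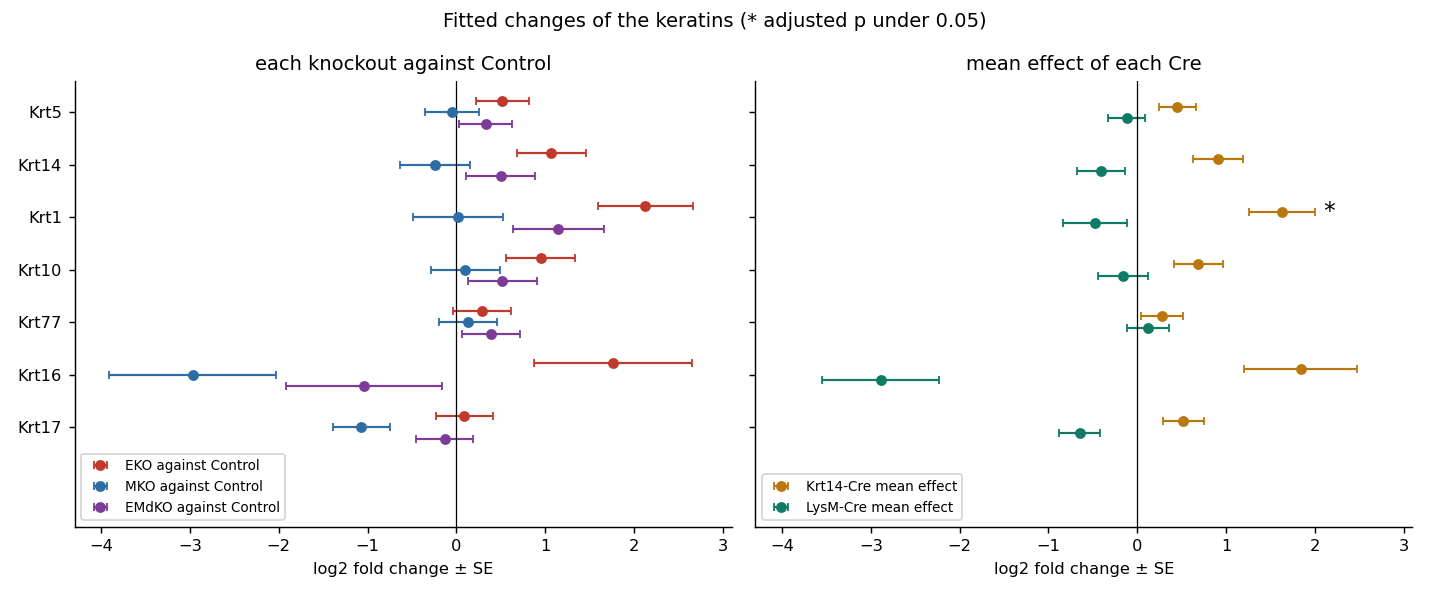
Fitted log2 fold changes ± SE (x axis) of the 7 keratins: each knockout against Control on the left, and the mean effect of each Cre on the right; the star marks adjusted p under 0.05. The star stands at Krt1 for Krt14-Cre (1.63), all 7 Krt14-Cre estimates are above 0, and the lowest point is Krt16 in MKO at -2.97.

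All 7 keratins had positive estimates in the mean effect of Krt14-Cre (median 0.69), against 45.2% of all genes tested (median -0.02). The keratins vary together between mice, so these are not 7 separate observations. In EKO against Control all 7 were positive as well (median 0.95, against 45.8% of genes), and in EMdKO against Control 5 were (median 0.39, against 47.1%). These comparisons share mice with one another.

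Across the 16 libraries, with the mean of each group taken off, Krt10 and Krt77 had a Pearson r of 0.91, Krt1 and Krt10 of 0.86, Krt5 and Krt14 of 0.80, and Krt16 and Krt17 of 0.64. Pairs of unlike role reached similar values: Krt5 with Krt1 and with Krt10 0.81 each, Krt14 with Krt1 0.80, and Krt14 with Krt16 0.72. The lowest values were those of Krt77 with Krt17 (0.09) and with Krt16 (0.12). All points share library and tissue makeup, and EKO mouse 1 had the lowest level of its group in all 7 keratins, so these are descriptions without a test. The suprabasal Krt77 thus varied with Krt10 from mouse to mouse although its mean effect of Krt14-Cre was the smaller one.

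**Figure D5:**
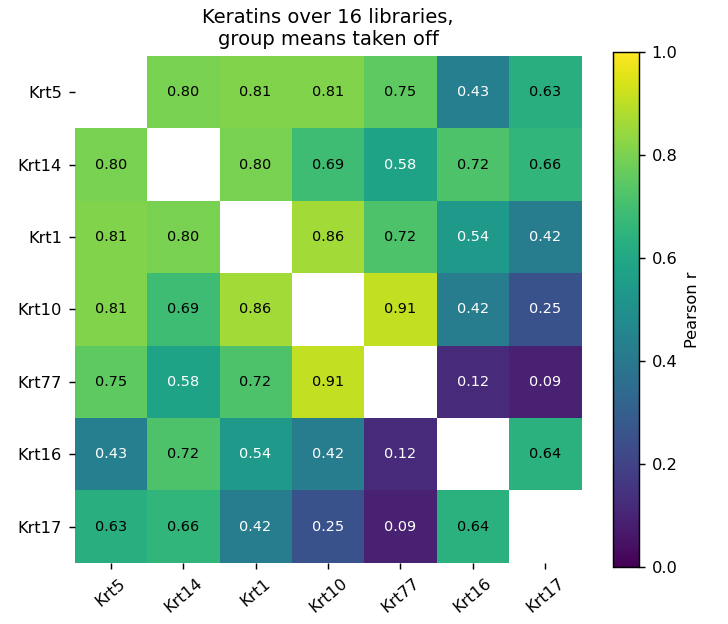
Pearson r between keratins (rows and columns) over 16 libraries after group means were taken off, with colour and number giving r. The suprabasal pairs Krt10 with Krt77 (0.91) and Krt1 with Krt10 (0.86) are highest, and Krt77 with Krt17 (0.09) is lowest.

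Of 12423 expressed genes, those most like each keratin on the same measure were these. Krt1 was most like Hrnr, which encodes hornerin, a protein of the cornified layer (r = 0.96), and Serpinb3b and Serpinb12, which encode serine protease inhibitors (0.95 each). Krt16 was most like Stfa1, a stefin-family gene (0.96), S100a9, a calprotectin subunit of neutrophils and stressed epidermis (0.96), and Urah (0.91). Krt17 was most like Calml3, a calmodulin-like gene (0.94), Dsg3, a desmoglein of basal cell junctions (0.92), and Mab21l3 (0.92). Krt10 was followed by Chit1 (0.96), Dbnl and Pycard (0.95 each), and Krt77 by Ly6m (0.96), Agpat4 and Parp10 (0.95 each). Krt5 was followed by Pla2g4f (0.96), Ggt6 and Bicd2 (0.95 each), and Krt14 by Mitd1 and Cmpk1 (0.89 each) and Hacd3 (0.88).

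The genes that surround keratins in differentiation were read from lists, of which the members called in the mean effect of Krt14-Cre are named. In that comparison 0.778% of all genes tested rose, 0.147% fell and 45.2% had positive estimates. Of 16 tested differentiation genes, 3 rose and none fell, and all 16 had positive estimates (median 0.58). Hrnr rose by 1.69 ± 0.30 (edgeR adjusted p = 0.0158), Flg, which encodes the filament-aggregating protein filaggrin, by 1.68 ± 0.36 (adjusted p = 0.035), and Rptn, which encodes the cornified envelope protein repetin, by 2.72 ± 0.54 (adjusted p = 0.0251). Hrnr averaged 148.0 ± 36.6 CPM in controls and 122.0 ± 22.2 in MKO, against 509.6 ± 279.9 in EKO and 370.9 ± 80.1 in EMdKO, the same order of EKO over EMdKO as for Krt1. Of 24 stress genes with a target, 16 passed the filter on counts and were tested. Of these 16 genes 6 rose and none fell, and 15 had positive estimates (median 2.18). They include Il1f6, Il1f8 and Il1f9, which encode interleukin-36 cytokines of stressed keratinocytes, at 5.21 ± 0.63, 2.49 ± 0.36 and 1.65 ± 0.29 (edgeR adjusted p = 0.00223, 0.00583 and 0.0159). The protease inhibitor gene Serpinb3a rose as well (edgeR adjusted p = 0.00583) and averaged 27.0 ± 25.3 CPM in EKO and 4.89 ± 4.0 in EMdKO, against 0.137 ± 0.115 in the controls. Serpinb3a was at most 0.28 CPM in Control and 0.126 in MKO mice. It thus passed the filter on counts through EKO and EMdKO, so its place among the tested genes depends on those groups. Not every EKO mouse was high in these named genes. For Hrnr the lowest EKO mouse had 92.8 CPM and the highest control 182.1, and Flg, Rptn, Il1f6, Il1f9 and Serpinb3a overlapped likewise. For Il1f8 the lowest EKO mouse lay above the highest control (7.95 against 7.06 CPM). Il17a and Il22, cytokines that induce stress keratins, were at 0 counts in all 16 libraries, which does not show that they were absent.

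Of 19 other epithelial keratins with a target, 11 were tested, of which 1 rose and none fell. It was Krt7, a keratin of simple and glandular epithelia, which averaged 0.884 ± 0.303 CPM in controls and 0.773 ± 0.135 in MKO, against 2.28 ± 0.568 in EKO and 1.5 ± 0.364 in EMdKO (1.14 ± 0.23; edgeR adjusted p = 0.0309). Krt7 was low everywhere, at most 1.24 CPM in Control and 0.953 in MKO. The EKO mice had at least 1.46 CPM, so its passing the filter on counts could depend on the groups where it was high. None of 17 desmosome and anchoring genes passed in either direction (13 positive, median 0.13). The smallest p there belonged to Dsc1, a desmocollin of the upper layers (0.45 ± 0.21; edgeR adjusted p = 0.453), and Pkp1, a desmosomal plaque protein (0.36 ± 0.18; adjusted p = 0.496). None of 26 epidermal regulators passed (19 positive, median 0.17). Of these Cebpa and Cebpb, whose products are C/EBP factors, came closest at 0.40 ± 0.12 and 0.42 ± 0.14 (edgeR adjusted p = 0.167 and 0.26). None of 17 cell cycle genes passed, though all 17 were positive (median 0.48), with Cdc20 at 0.64 ± 0.21 and Ccna2 at 0.56 ± 0.22 (edgeR adjusted p = 0.217 and 0.345).

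Markers of other cells were read beside the Krt1 result. Of 12 sebaceous gland genes 3 rose in the mean effect of Krt14-Cre (10 positive, median 0.95), and their part in the Krt1 difference was not tested. None of 11 fibroblast genes (10 negative, median -0.30), 10 adipocyte genes (9 negative, median -0.25), 11 muscle genes (9 negative, median -0.24), 9 macrophage genes, 8 T cell genes, 4 neutrophil genes or 23 hair genes (18 positive, median 0.72) passed. With the hair score as a covariate Krt1 had 1.71 (edgeR adjusted p = 0.0219), and without it 1.63. The part of hair follicle content in the Krt1 difference was not tested.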

How the data were processed

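RNA of whole skin from 16 mice was amplified with a targeted transcriptome kit (Ion AmpliSeq, mouse), as the labels' protocols say. Each deposited file lists the authors' raw counts per target. Per the submitters' processing notes, which also name DESeq2 1.18.1, the counter was HTSeq 0.6.0. Neither aligner nor build nor annotation is given in the sources used here. The 5 HTSeq summary lines (3.111 to 5.252% of reads) were left out. Symbols came from RefSeq (22452 targets) and GENCODE vM21 (110), and 1368 targets, at most 0.308% of counts, had none. No 2 libraries agreed within sampling noise (smallest chi-square per degree of freedom 14.43).

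Models were fitted by the quasi-likelihood method of edgeR 4.0.16 in R 4.3.3 (TMM, default filter, 1 mean per group, all 16 libraries, 13633 genes, 12 residual degrees of freedom). The threshold was a Benjamini-Hochberg adjusted p of 0.05 over all genes. The standard error is the absolute log2 fold change over the square root of F. Scores and ratios both used log2 CPM with a prior count of 2, and levels were given as CPM. Groups of 4 mice were also compared by exact two-sided permutation (70 assignments). Alternatives were DESeq2 1.42.0, limma-voom (limma 3.58.1), other scaling and filters, covariates and left-out libraries. On simulated counts of 13633 genes, 50 genes were changed in EKO at each size. There edgeR recovered 44% at a log2 change of 1, 92% at 2, 92% at 3 and 98% at 5, and 8 of its 171 calls were false. With DESeq2 21 of 190 calls were false, and with limma-voom 7 of 169. The simulated mice did not deviate from their group as EKO mouse 1 did.

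The keratins and gene lists were chosen with earlier results of these data known. Named genes of a list are those called in the mean effect of Krt14-Cre, up to 4 by smallest p, and otherwise the 2 of smallest p.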

Additional observations from a re-analysis of the deposited data

Results flagged for a closer look

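Of 48 sets of 4 mice (keratin levels and ratios by genotype), 4 held a mouse far from the other 3, with a gap to the nearest of them above 0.829 of the range. Chance alone gives about 1 in 20. EKO mouse 1 had 457.8 CPM of Krt1 (other EKO mice 3890 to 5036, gap 0.89 of the range) and 1055 CPM of Krt10 (others 3051 to 3518, 0.88). Its log2 ratio of Krt1 to Krt77 was -0.33 (others 1.89 to 2.32, 0.84). Control mouse 3 had a ratio of Krt1 to Krt77 of 0.37 (other controls -0.15 to -0.09, 0.89). The first 3 values come from 1 library and are not separate flags.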

How the results depend on the processing

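The number of keratins called depended on the tool and on single libraries. In the mean effect of Krt14-Cre it was 1 (Krt1), with 2 in DESeq2, 3 in limma-voom, 3 with EKO mouse 1 and Control mouse 2 left out together (an alternative added after seeing the data) and 0 to 2 with 1 library left out. In EKO against Control it was 0, with 1 in DESeq2, 2 with those libraries left out together and 0 to 2 with 1 left out (2 without EKO mouse 1). Of all genes, 0 were called there, with 51 in DESeq2, 101 with those libraries left out together and 127 without EKO mouse 1. In the mean effect of LysM-Cre the number of keratins called was 0, with 1 in DESeq2 and 1 with both left out. It was 0 to 1 with 1 left out (1 without EKO mouse 1). Of all genes, 6 were called there, with 259 in DESeq2, 30 with both left out and 25 without EKO mouse 1. The other 5 comparisons called no keratin under any alternative run. The cause of these differences was not tested. Signs reversed for Krt17 in EKO against Control, from 0.09 to -0.07 without EKO mouse 2 and -0.01 without EKO mouse 3 (range over the left-out libraries -0.07 to 0.30), and for Krt16 in EMdKO against Control, from -1.04 to 0.10 in limma-voom, 0.34 without Control mouse 2 (range -1.37 to 0.34) and 0.34 with both libraries left out. Of 750 recomputed fold changes of single keratins, 717 kept direction and side of the threshold, and of 192 recomputed counts of keratins called, 168 equalled the count given.

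The count of all genes called in the mean effect of Krt14-Cre was 126, with 588 in limma-voom and 316 in DESeq2. It was 303 with EKO mouse 1 and Control mouse 2 left out together and 40 to 356 with 1 library left out. Mouse numbers did not pair the samples: same-numbered mice of different groups correlated above 0.1 in 7 of 24 pairs (range -0.596 to 0.587), and 5 of 16 libraries correlated best with their own number. With the mouse number as a replicate block, the keratins called in the mean effect of Krt14-Cre remained 1 in number, and Krt1 had 1.57 (edgeR adjusted p = 0.0437).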
